A study of Mus musculus with 12 samples.

Results

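Loss of the helicase DHX36 was examined in mouse embryonic stem cells that lacked a related helicase, FANCJ. The comparison set the 3 libraries of the DHX36/FANCJ double knockout against the 3 libraries of the FANCJ knockout, 6 of the 12 libraries of the series, and both sides therefore carried the FANCJ loss and differed by DHX36 as labelled. The 6 other libraries, 3 wild type and 3 of the DHX36 single knockout, give the same loss in cells that keep FANCJ. All cells were of the IB10 line, which comes from 129/Ola mice, and they were kept untreated on gelatin in conditioned medium with serum and leukaemia inhibitory factor. RNA of lysed cells was sequenced in bulk from the 3′ ends of transcripts, by a method like CEL-Seq2. The sources used here do not say whether a knockout was 1 clone or whether replicate libraries were grown as separate cultures, so p-values measure only the spread between these libraries, which may be technical, and a difference between genotypes cannot be told apart from a difference between clones.

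A G-quadruplex is a stack of guanines that a strand with several runs of G can fold into, in DNA or in RNA. DHX36, a member of the DEAH-box family of helicases, binds such stacks tightly and unwinds them in both nucleic acids, and in the cytoplasm it acts on mRNAs that carry them. FANCJ, encoded by Brip1, unwinds them in DNA during replication and also works in the Fanconi anaemia pathway, which repairs crosslinks between DNA strands. Embryonic stem cells in serum are a mixed population that expresses naive pluripotency factors together with some genes of later states.

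The FANCJ knockout libraries held 7900066, 7718734 and 4936662 counts and the double knockout libraries 14721931, 12434083 and 10915924, so depth separated the groups without overlap. Mitochondrial transcripts took 11.2% to 11.5% of counts in the former and 11.9% to 13.2% in the latter. All 10 defining markers of embryonic stem cells were measured, with a summed level of 5122 to 5428 CPM in FANCJ knockout libraries and 7054 to 7361 CPM in double knockout libraries. Of 16 fibroblast markers, 6 lay under 1 CPM (counts on a scale common to all libraries), and their summed level was 202.5 to 215.8 CPM in FANCJ knockout libraries and 101.9 to 112.8 CPM in double knockout libraries. In bulk RNA, fewer cells of a type and less RNA per cell cannot be told apart. On chromosome 8 the median gene at 20 CPM or more stood at -0.22 to -0.18 (log2) from wild type in the double knockout libraries and at -0.03 to -0.01 in the FANCJ knockout libraries.

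The targeted transcript was low in the double knockout. Dhx36 (GRCm38 chr3:62468013-62507004, minus strand) had 444, 387 and 281 counts in FANCJ knockout libraries and 180, 189 and 163 in double knockout libraries. That is 57.2, 51.5 and 58 CPM in the FANCJ knockout and 12.2, 15.1 and 14.5 CPM in the double knockout, a log2 change of -2.0 (SE 0.12, adjusted p = 2.17e-11). Brip1 had 1, 2 and 3 counts in FANCJ knockout libraries and 11, 4 and 2 in double knockout libraries. Its level did not differ beyond the spread (log2 change 0.52, adjusted p = 0.568). The wild-type mean of Brip1 was 6.87 ± 0.154 CPM. The sources used here do not name the deleted exons, and the Dhx36 tags that remain say nothing of the protein.

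Several gene lists had most tested members lower in the double knockout than in the FANCJ knockout. Among them were contractile actin, simple epithelial keratins, matrix proteins and insulin signalling (11 of 21 lower). Most tested members of the naive pluripotency list were higher. Counts are given per group below. The lists were chosen with earlier results of these data known, and those of matrix and insulin signalling after the values were seen. In total 4697 of 12765 tested genes (36.8%) changed, 2332 higher (18.3%) and 2365 lower (18.5%), at an adjusted p of 0.05 in edgeR's quasi-likelihood test. At least 2-fold changes were seen in 662 rises (5.19%) and 736 falls (5.77%). In 6219 genes (48.7%) no double knockout library reached into the range of the FANCJ knockout libraries, and 5776 (45.2%) passed an unadjusted p of 0.05. The median log2 change over all tested genes was 0.017. These shares are the background against which the counts for each gene group below are read.

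The largest rises among genes that averaged 20 CPM or more were of varied function. A value in brackets after a gene, here and below, is its log2 change. Cd37 (chr7:45233632-45239115, minus strand), a tetraspanin of the cell surface, had 16, 11.3 and 9.70 CPM in the FANCJ knockout and 113, 111 and 107 CPM in the double knockout, a log2 change of 3.13 (SE 0.16, adjusted p = 3.25e-12). Otx2 (chr14:48657677-48673819, minus strand), the homeodomain factor that leads cells out of the naive state, had 19.7, 16.8 and 22.9 CPM in the FANCJ knockout and 116, 128 and 136 CPM in the double knockout, a log2 change of 2.69 (SE 0.15, adjusted p = 5.65e-12). Dppa3, which guards DNA methylation in the early embryo, had 6.83, 6.25 and 8.46 CPM in the FANCJ knockout and 43.2, 43.2 and 36.5 CPM in the double knockout (2.54). In all 3 genes the groups were far apart. Pfkp, the platelet form of phosphofructokinase in glycolysis, had 29.4, 28.9 and 26.6 CPM in the FANCJ knockout and 151, 119 and 125 CPM in the double knockout (2.21). Aass, which encodes the enzyme that opens lysine breakdown in mitochondria, had 21, 13.8 and 22.5 CPM in the FANCJ knockout and 82.7, 95.2 and 73.5 CPM in the double knockout (2.15). Other large rises were the Nodal antagonist Lefty2 (2.04), the mitochondrial adenylate kinase Ak4 (1.97), the thiolase Acaa2 (1.92), the water and glycerol channel Aqp3 (1.91), the carnitine palmitoyltransferase Cpt1a (1.88), the ciliary transcription factor Rfx2 (1.87) and the ETS factor Etv1 (1.84). None of these 12 genes had overlapping libraries, which the choice of genes required.

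The largest falls included contractile, epithelial and secreted products. Acta2 (chr19:34241090-34255590, minus strand), smooth muscle alpha actin, had 529, 534 and 509 CPM in the FANCJ knockout and 49.2, 40.3 and 47.8 CPM in the double knockout, a log2 change of -3.52 (SE 0.10, adjusted p = 6.84e-16). Tagln (chr9:45929619-45936058, minus strand), which encodes the actin-binding protein transgelin, had 379.7, 400.4 and 420.2 CPM in the FANCJ knockout and 67.3, 58.6 and 58.7 CPM in the double knockout, a log2 change of -2.70 (SE 0.10, adjusted p = 8.31e-14). Every double knockout library was below every FANCJ knockout library for both genes, which the choice of genes required. Col1a1, a chain of fibrillar collagen, had 65.6, 65.2 and 68.5 CPM in the FANCJ knockout and 11.2, 11.2 and 12.7 CPM in the double knockout (-2.50). The carrier that brings Wnt proteins to the cell surface, Wls (-2.49), the IGF-binding protein Igfbp4 (-2.46), the serine protease Prss23 (-2.44), the replication-linked protease Fam111a (-2.38), the glutathione transferase Gsto1 (-2.37), keratin Krt7 (-2.33), calponin Cnn1 (-2.31) and the TEAD cofactor Vgll3 (-2.31) fell with them.

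**Figure D1:**
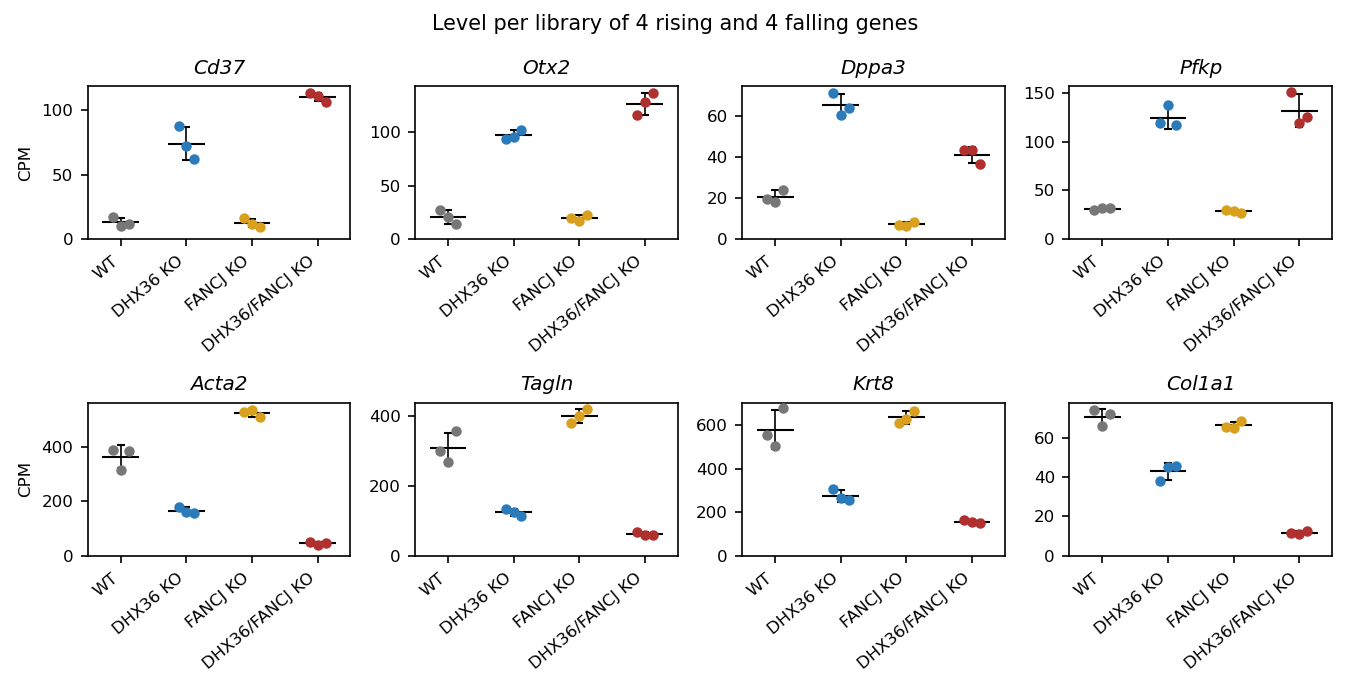
Level in CPM (vertical axes, linear from 0) of 4 genes that rose (upper row) and 4 that fell (lower row) in each of the 12 libraries, with 1 point per library, grouped by genotype on the horizontal axes. Horizontal lines are means and bars are SD over 3 libraries. Acta2 lies between 40.3 and 49.2 CPM in the double knockout and between 509 and 534 CPM in the FANCJ knockout.

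Nearly all listed genes of the contractile actin cytoskeleton fell, in a list chosen with earlier results of these data known. Actin filaments are built from actin monomers, crosslinked by actinins and filamin, stabilised by tropomyosins and moved by myosin, and many of these genes are targets of the serum response factor SRF. Of 26 tested members of a list of actin and SRF target genes, 24 fell and 0 rose, with a median log2 change of -1.35, beside 18.5% of all genes that fell and a median of 0.017 over all. The remaining members were Srf itself (-0.20, adjusted p = 0.286) and Ccn2 (0.04, adjusted p = 0.841), named after their values were seen. Myl9, the regulatory light chain of smooth muscle myosin, had 11, 12.9 and 12.6 CPM in the FANCJ knockout and 1.15, 1.44 and 2.76 CPM in the double knockout (-2.80), and Cnn1 had 41.6, 64.1 and 39.4 CPM in the FANCJ knockout and 7.24, 12.4 and 9.97 CPM in the double knockout (-2.31). The summed level of the 27 listed genes was 20270 to 22310 CPM in the FANCJ knockout libraries and 11040 to 11860 CPM in the double knockout. Beside the muscle isoforms, Actb, the cytoplasmic beta actin, fell too, from 3552 ± 527 to 1842 ± 261 CPM (mean ± SD, n = 3, -0.95).

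Targets of YAP and TEAD, the transcription pair that answers to cell shape and tension, were counted in a list put together after the values were seen. Of 20 tested members 14 fell and 1 rose, with a median of -1.23. Crim1, a membrane protein that binds BMPs, had 29, 35 and 31.2 CPM in the FANCJ knockout and 6.83, 6.46 and 6.77 CPM in the double knockout (-2.24). F3, tissue factor (-2.20), the growth factor Tgfb2 (-2.18) and the receptor tyrosine kinase Axl (-2.10) fell by similar amounts. The transcript of Yap1 itself, which has been reported as a DHX36 target, had 160.0, 160.4 and 142 CPM in the FANCJ knockout and 236, 181 and 193 CPM in the double knockout, a log2 change of 0.40 (SE 0.13, adjusted p = 0.023). That call was lost without the first double knockout library (adjusted p = 0.145) or without the third FANCJ knockout library (adjusted p = 0.0860).

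Matrix genes were likewise counted in a list put together after the values were seen, and 20 of 33 fell while 2 rose, with a median of -0.80. Col6a1, a chain of microfibrillar collagen, had 1.93, 5.05 and 4.33 CPM in the FANCJ knockout and 0.610, 0.560 and 0.800 CPM in the double knockout (-2.49). Thbs1, the adhesive glycoprotein thrombospondin, had 217, 207 and 199 CPM in the FANCJ knockout and 49.5, 43.2 and 41.8 CPM in the double knockout (-2.21), and Timp3, an inhibitor of matrix metalloproteinases, had 41.9, 44 and 46.8 CPM in the FANCJ knockout and 10.5, 11.4 and 8.73 CPM in the double knockout (-2.11). All 3 genes had lower levels in every double knockout library, as did 23.9% of all genes tested. Of 10 tested fibroblast markers 5 fell, among them Mmp2 (-1.27) and Col3a1 (-1.22), and Thy1 rose (1.32). The part of a change in fibroblast-like cells in the matrix result was not tested.

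Of 20 genes of simple epithelial keratins and junctions, 16 fell and 0 rose, with a median of -1.06. Krt8 and Krt18 encode the partner keratins of simple epithelia and of the trophectoderm. Krt8 had 612, 629.7 and 669 CPM in the FANCJ knockout and 163, 155 and 149 CPM in the double knockout, a log2 change of -2.03 (SE 0.10, adjusted p = 1.74e-12), and Krt18 had 262, 284 and 246 CPM in the FANCJ knockout and 56.5, 53 and 69.8 CPM in the double knockout (-2.15). Krt7 had 78.2, 79.5 and 65.8 CPM in the FANCJ knockout and 13.7, 12.8 and 18.2 CPM in the double knockout (-2.33). Its groups did not overlap, which its choice among the largest falls required. Among the members not called were Cldn3, Tjp1 and Crb3, junction components named after their values were seen (-0.28, -0.20 and -0.13).

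Genes of naive pluripotency rose in the same libraries. This network of transcription factors keeps embryonic stem cells in the state of the early epiblast. Of 30 tested members 20 rose, beside 18.3% of all genes, and 2 fell, with a median of 0.401. After Dppa3 the largest changes were in the adhesion molecule Pecam1 (35.6, 36.2 and 44.8 CPM in the FANCJ knockout and 101, 91.2 and 105 CPM in the double knockout, 1.36), the T-box factor Tbx3 (50.3, 50.3 and 52.2 CPM in the FANCJ knockout and 125, 119 and 126 CPM in the double knockout, 1.28) and the F-box gene Fbxo15 (1.19). Core factors changed less. Sox2 had 1278, 1393 and 1271 CPM in the FANCJ knockout and 2052, 2011 and 1882 CPM in the double knockout (0.59). Esrrb had 146, 165 and 142 CPM in the FANCJ knockout and 226, 228 and 230.3 CPM in the double knockout (0.59). The groups of Sox2 and Esrrb did not overlap, as in 48.7% of all genes tested. Of the 10 defining markers of the cell type 9 rose and Lin28a, named after its values were seen, fell (-0.50).

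Formative and primed genes, which mark the exit from that state, did not move as one. Of 23 tested members 12 rose and 5 fell, with a median of 0.357, and without the second FANCJ knockout library 3 fell. Otx2 and the de novo DNA methyltransferase Dnmt3a (79, 70.3 and 73.2 CPM in the FANCJ knockout and 208, 219 and 205 CPM in the double knockout, 1.5) led the rises together with the zinc finger factor Zic5 (1.39). Car14, a carbonic anhydrase, went from 0.112 ± 0.104 to 1.68 ± 0.234 CPM, so its fitted change (3.88) rests on few counts. Enzymes and cofactors of DNA methylation were higher in 8 of 17 tested members and lower in 2, and Prdm14, which restrains de novo methylation in naive cells, had 5.41, 5.05 and 5.78 CPM in the FANCJ knockout and 11.1, 13.2 and 12.5 CPM in the double knockout (1.18). The 2 falls numbered 0 without the third double knockout or the second FANCJ knockout library, and 1 without the second double knockout or the first or the third FANCJ knockout library, under library totals, with DESeq2, with no filter, in genes at 20 CPM or more and at equal depth.

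**Figure D2:**
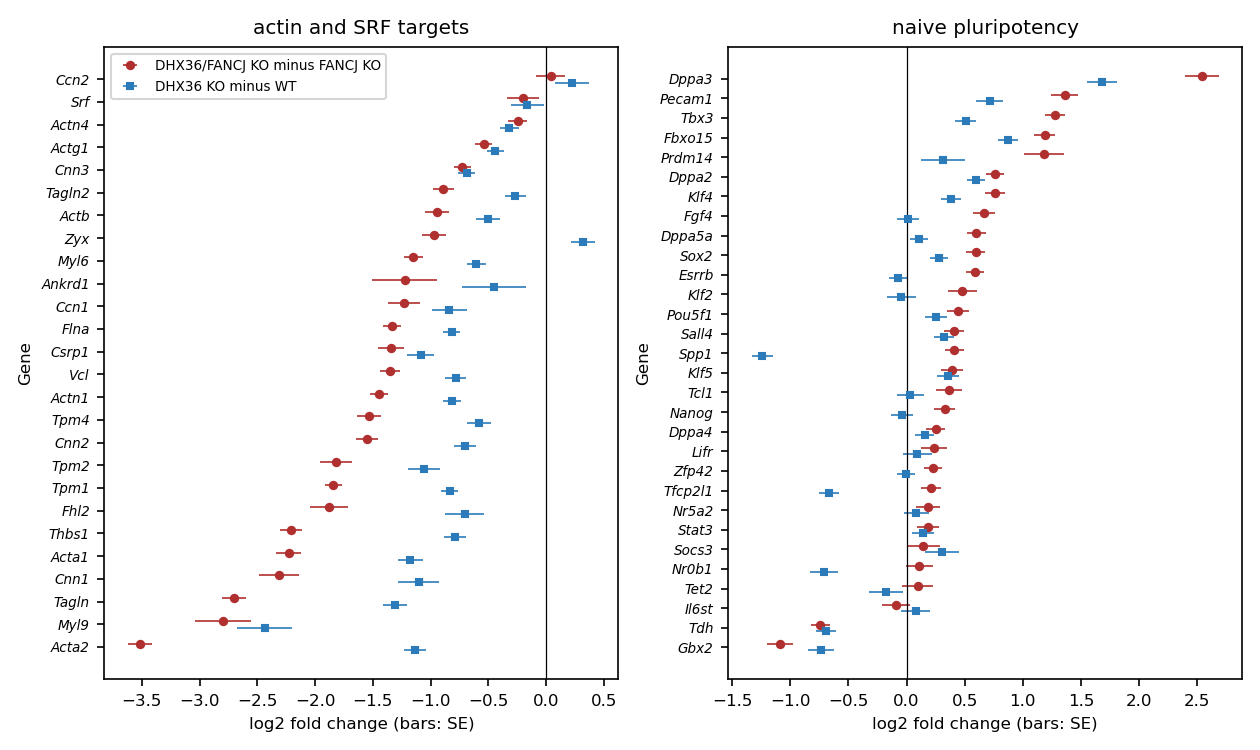
Log2 fold change (horizontal axes) of each tested gene of the actin and SRF list (left) and of the naive pluripotency list (right), with bars of 1 SE. Circles are the double knockout minus the FANCJ knockout and squares are the DHX36 knockout minus wild type. Acta2 stands at -3.52 and -1.13, and Dppa3 at 2.54 and 1.68.

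Markers of neuroectoderm and primitive endoderm fell more often than they rose, while those of mesendoderm and trophoblast had as many rises as falls. Of all genes tested, 18.3% rose and 18.5% fell. Of 10 tested neuroectoderm genes 8 fell and 0 rose (median -0.84). The secreted neuropeptide precursor Vgf had 195, 202 and 196 CPM in the FANCJ knockout and 47.4, 44.3 and 50.3 CPM in the double knockout, a log2 change of -2.06 (SE 0.10, adjusted p = 1.68e-12), and the neural progenitor genes Sox1 (-1.95) and Nes (-0.91) fell. Of 17 primitive endoderm genes 8 fell and 2 rose, or 1 without the second or the third double knockout or the first or the second FANCJ knockout library, and the 2 largest falls were the basement membrane collagens Col4a2 (94.5, 89.6 and 97.6 CPM in the FANCJ knockout and 21.4, 28.1 and 23.2 CPM in the double knockout, -1.95) and Col4a1 (-1.74), which lie side by side on chromosome 8. In mesendoderm 2 of 8 genes fell, led by Wnt3 (5.16, 5.45 and 6.60 CPM in the FANCJ knockout and 0.810, 1.28 and 1.34 CPM in the double knockout, -2.32), and 2 rose, Eomes (0.48) and T, or brachyury (1.03, with an adjusted p of 0.115 when all libraries were thinned to equal depth). Of 10 trophoblast genes 3 fell, the caudal factor Cdx2 among them (-1.77), and 3 rose, the largest Gata2 (1.08).

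Signalling genes changed at several levels. Of 13 Wnt target genes 8 fell and 4 rose (median -0.40). The transcription factor Sp5 had 7.73, 4.65 and 5.36 CPM in the FANCJ knockout and 1.83, 1.75 and 1.87 CPM in the double knockout (-1.71), and the feedback inhibitors Dkk1 (-1.13) and Nkd1 (-1.08) fell, while Notum, a deacylase that inactivates Wnt ligands, rose (1.25). The ligand Wnt3, at a few CPM, and the carrier Wls, both given above, fell as well. The part of their falls in the changes of the Wnt targets was not tested. Immediate early and ERK feedback genes fell in 13 of 20 and rose in 3, or in 1 without the second FANCJ knockout library, with a median of -0.49. Ier3 had 30.6, 29.1 and 26.4 CPM in the FANCJ knockout and 6.76, 7.50 and 7.84 CPM in the double knockout (-1.97), the phosphatase Dusp1, which switches off MAP kinases, had 175, 183 and 188 CPM in the FANCJ knockout and 81.2, 80.1 and 80.8 CPM in the double knockout (-1.17), and the AP-1 subunit Fosb had 32.2, 41.9 and 33.2 CPM in the FANCJ knockout and 18.7, 16 and 13.1 CPM in the double knockout (-1.16).

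Insulin and IGF signalling, listed after the values were seen, had 11 of 21 members lower and 2 higher (median -0.51), or 1 higher without the third double knockout or the first or the third FANCJ knockout library. The adaptor proteins that link the receptors to PI3 kinase were low: Irs1 had 41.5, 53.2 and 46 CPM in the FANCJ knockout and 10.4, 9.01 and 10.1 CPM in the double knockout (-2.26) and Irs2 had 63.8, 62.1 and 61.3 CPM in the FANCJ knockout and 19, 18 and 20.5 CPM in the double knockout (-1.70). Igfbp4 had 161, 110.1 and 122 CPM in the FANCJ knockout and 21, 19.9 and 31.2 CPM in the double knockout and Igfbp3 changed by -1.27. In a list of Nodal and BMP signalling, also put together after the values were seen, 8 of 20 rose and 5 fell. Lefty2 had 7.86, 8.64 and 10.7 CPM in the FANCJ knockout and 35.9, 37.2 and 36.8 CPM in the double knockout (2.04), Lefty1 had 9.54, 12 and 12.8 CPM in the FANCJ knockout and 20, 25.4 and 45.9 CPM in the double knockout (1.41), and the Nodal coreceptor Tdgf1 had 116, 119 and 116 CPM in the FANCJ knockout and 232, 222 and 225 CPM in the double knockout (0.95). The BMP antagonist Nog (-1.97) and the BMP-responsive Id2 (-1.49) fell. Without the third double knockout library, 3 members of this list fell.

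Metabolic genes moved in both directions. Of 34 genes of glycolysis and hypoxia 8 rose and 9 fell (median -0.12), beside 18.3% and 18.5% of all genes tested. Pfkp rose, while Pfkfb3, which makes the activator of phosphofructokinase, had 41.3, 35 and 34.3 CPM in the FANCJ knockout and 8.73, 11.6 and 6.86 CPM in the double knockout (-2.02) and the glucose transporter Slc2a3 had 1050.2, 1151 and 1009 CPM in the FANCJ knockout and 346, 353 and 365 CPM in the double knockout (-1.60). Egln3, an oxygen-sensing prolyl hydroxylase, fell (-1.44). Fatty acid oxidation, listed after the values were seen, had 9 of 22 members higher and 1 lower (median 0.262), or 0 lower without the first double knockout or the first FANCJ knockout library, under library totals, with DESeq2, with a replicate block, in genes at 20 CPM or more and at equal depth. Cpt1a, which loads fatty acids onto carnitine, had 10.6, 11.6 and 15.3 CPM in the FANCJ knockout and 39.8, 48.3 and 47.3 CPM in the double knockout, and Slc25a20, which carries them into mitochondria, had 29.9, 33.4 and 23.1 CPM in the FANCJ knockout and 98.8, 82.8 and 79.7 CPM in the double knockout (1.58). Acaa2, which performs the last step of each cycle, had 14.1, 13.2 and 12.6 CPM in the FANCJ knockout and 53.3, 46.7 and 51 CPM in the double knockout. These 3 genes act in sequence along the pathway, of which 12 of the 22 tested members were not called. The choice of Cpt1a and Acaa2 among the largest rises required groups without overlap. The groups of Slc25a20 did not overlap either, as in 48.7% of all genes tested.

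Stress programmes were split. Of all genes tested, 18.3% rose and 18.5% fell. Of 25 targets of ATF4, the factor of the integrated stress response, 11 rose and 5 fell (median 0.228). Chac1, which degrades glutathione, had 3.35, 3.72 and 4.33 CPM in the FANCJ knockout and 10.2, 12.8 and 13.8 CPM in the double knockout (1.70) and the pseudokinase Trib3 had 2.19, 2.66 and 1.86 CPM in the FANCJ knockout and 6.49, 6.54 and 6.86 CPM in the double knockout (1.54). Glutathione and transsulfuration genes fell in 12 of 29 and rose in 2 (median -0.21), and Gsto1 had 189.7, 201 and 174 CPM in the FANCJ knockout and 35.9, 35.8 and 37.8 CPM in the double knockout, a log2 change of -2.37 (SE 0.10, adjusted p = 3.03e-13). Of 27 p53 targets 10 fell and 6 rose (median -0.039). Perp, a desmosomal protein that the keratin list holds too, had 82, 83.8 and 81.3 CPM in the FANCJ knockout and 27.3, 32.5 and 29.1 CPM in the double knockout (-1.47), the kinase Plk2 had 102, 98.7 and 98 CPM in the FANCJ knockout and 41.9, 39.5 and 40.4 CPM in the double knockout (-1.30), and Sesn1 rose (1.35). Interferon-stimulated genes fell in 5 of 16 and rose in 2, with 3 falls at equal depth or without the third double knockout library, and 1 rise without the first or the third double knockout or the first or the second FANCJ knockout library. B2m, the light chain of class I antigen-presenting molecules, had 64.6, 65.7 and 71.6 CPM in the FANCJ knockout and 20.6, 22.3 and 21.7 CPM in the double knockout (-1.64), and the peptide transporter Tap1 fell (-1.68).

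Imprinted genes, which are read from only one parental copy, fell in 17 of 37 and rose in 5 (median -0.38), with 3 rises without the third double knockout library. Nnat, a small membrane protein expressed from the paternal copy, had 466, 362 and 419 CPM in the FANCJ knockout and 74.8, 79.8 and 107 CPM in the double knockout, a log2 change of -2.26 (SE 0.13, adjusted p = 1.39e-11). Peg10, a paternally expressed gene derived from a retrotransposon, had 1678, 2282 and 1579 CPM in the FANCJ knockout and 682, 749 and 802 CPM in the double knockout (-1.31). Zim1 (-2.78) and the antisense RNA Airn (-1.95) fell at levels of a few CPM or less, and reads of Airn cannot be told from those of genes it overlaps where strand was not used in counting. The maternally expressed RNA H19 had 696, 622 and 599 CPM in the FANCJ knockout and 574, 602 and 607 CPM in the double knockout (log2 change -0.10, adjusted p = 0.338), and the groups overlapped. Meg3 likewise overlapped, with 126, 91.6 and 124 CPM in the FANCJ knockout and 111, 103 and 100.0 CPM in the double knockout (log2 change -0.12, adjusted p = 0.432).

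The helicases and repair factors closest to the targeted pair changed little as groups. Of 30 Fanconi and homologous recombination genes 5 rose and 1, Ercc1, fell (-0.95), beside 18.3% and 18.5% of all genes tested. Rises numbered 2 at equal depth or without the second FANCJ knockout library. They numbered 3 without the first or the second double knockout library. Fancm, the translocase that senses stalled forks, had 21.8, 19.4 and 20 CPM in the FANCJ knockout and 30.6, 29.8 and 27.7 CPM in the double knockout (0.53). Of 24 other helicases and binders of G-quadruplexes 3 rose and 3 fell, again beside 18.3% and 18.5% of all genes tested. Without the first double knockout or the second FANCJ knockout library 1 rose. Dhx9, an RNA helicase that also unwinds G-quadruplexes, had 247, 263 and 259 CPM in the FANCJ knockout and 563, 577 and 379.8 CPM in the double knockout, a log2 change of 0.98 (SE 0.13, adjusted p = 4.80e-06), with the third double knockout library lower than the other two and above all FANCJ knockout libraries. Ddx21 fell (-0.35). Wrn, on chromosome 8 with its lower median, stood at -0.62 (adjusted p = 0.029). The call of Wrn was lost with DESeq2 (0.0531) and without the first (0.0573) or the third double knockout library (0.0796). It was also lost without the first (0.0593) or the third FANCJ knockout library (0.184). Dna2 stood at -0.36 (adjusted p = 0.020). The call of Dna2 was lost with no filter (0.0591), at equal depth (0.0876) and without the second double knockout library (0.0780). It was also lost without the second (0.0727) or the third FANCJ knockout library (0.0515).

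Of 16 other DEAH-box helicases 6 rose and 1 fell (median 0.220). Dhx32 had 121, 143 and 134 CPM in the FANCJ knockout and 209.8, 218 and 225 CPM in the double knockout (0.72). The splicing helicase Dhx15 had 334, 396 and 398 CPM in the FANCJ knockout and 606, 496 and 534 CPM in the double knockout (0.54). Dhx57 had 18.3, 18.2 and 25.8 CPM in the FANCJ knockout and 10.7, 10.5 and 16.8 CPM in the double knockout (-0.70). The groups did not overlap in any of the 3, as in 48.7% of all genes tested. Of 24 factors of R-loops and mRNA export 4 rose and 3 fell, beside 18.3% and 18.5% of all genes tested, and 1 fell at equal depth. Ddx19b, a helicase that releases mRNA at the nuclear pore, had 31.2, 27.7 and 26 CPM in the FANCJ knockout and 96.5, 79.4 and 82 CPM in the double knockout (1.60) against the lower median of its chromosome, 8. Of 3 tested transcripts that have been reported as DHX36 targets, Nkx2-5, a cardiac transcription factor, fell (5.03, 4.52 and 4.13 CPM in the FANCJ knockout and 1.35, 1.75 and 1.96 CPM in the double knockout, -1.45) Yap1 rose as given above, and Gnai2, named after its values were seen, was not called (-0.21, adjusted p = 0.087).

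Cell cycle genes moved by small amounts. S-phase genes fell in 6 of 27 and rose in 2, beside 18.5% and 18.3% of all genes tested. The histone mRNA-binding factor Slbp had 214, 227 and 224 CPM in the FANCJ knockout and 157, 164 and 143 CPM in the double knockout (-0.52). G2 and mitosis genes rose in 5 of 21 and fell in 0, beside 18.3% and 18.5% of all genes tested. Their rises numbered 9 when library totals alone set the scale. They numbered 2 without the first double knockout, the second FANCJ knockout or the third FANCJ knockout library. Cenpf, a kinetochore protein, had 111, 104 and 118 CPM in the FANCJ knockout and 162, 152 and 161 CPM in the double knockout (0.52). Of 23 tested histone genes 12 rose and 0 fell (median 0.687), or 1 fell without the first FANCJ knockout library, out of 74 listed, of which 53 lay under 1 CPM. The linker histone gene Hist1h1c had 4.51, 4.92 and 5.57 CPM in the FANCJ knockout and 11.4, 14.9 and 10.1 CPM in the double knockout (1.29). Replication-dependent histone mRNAs lack a poly(A) tail, so their capture by this method need not follow their level. Ribosomal protein genes fell in 16 of 84, close to the 18.5% of all genes tested, and rose in 2. Their falls numbered 8 under library totals and 9, 10 and 9 without the first or the second double knockout or the first FANCJ knockout library.

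**Figure D3:**
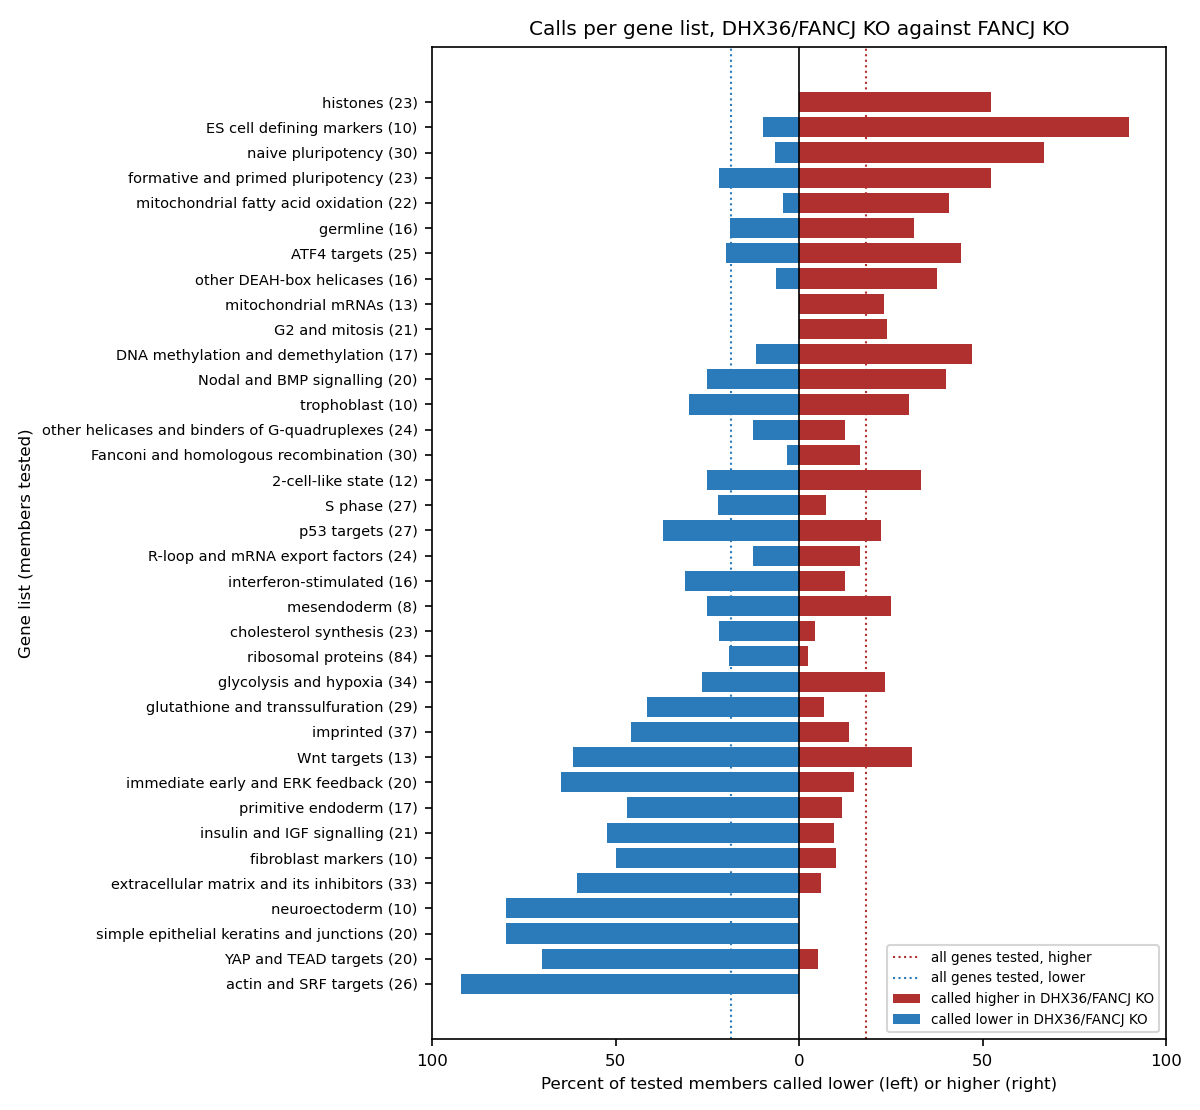
Share of tested members called higher (bars to the right, percent) or lower (bars to the left, percent) in the double knockout against the FANCJ knockout for each gene list with at least 8 tested members, ordered by median log2 change, with the number tested in brackets. Dotted lines mark all genes tested, at 18.3% higher and 18.5% lower. The actin and SRF list, with 24 of 26 lower, stands at the bottom.

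G-quadruplex motifs were looked up because DHX36 acts on such sequences. The motif was 4 runs of at least GGG with loops of 1 to 7 bases between them searched on both strands of the 300 bases around each start site in RefSeq (GRCm38.p6). It occurred in 18.6% of all 32851 windows and in 32.4% of the 9988 tested genes that matched. Among the 12 largest rises 9 matched and 4 held a motif, and among the 12 largest falls 9 matched and 4 held one. The sites below, 3 from rises and 3 from falls, show that motif letters of the same kind stand before a RefSeq start of genes of both directions. Each is written 5′ to 3′ on its G-rich strand, with the G runs of the motif in capitals.
Otx2 (rise), chr14:48662797-48662826, minus strand: GGGGGgtGGGGGggacggcGGGGGtGGGGG
Ak4 (rise), chr4:101419603-101419625, plus strand: GGGGGatGGGagtGGGGGtGGGG
Rfx2 (rise), chr17:56831039-56831058, minus strand: GGGcGGGcgctgcGGGcGGG
Wls (fall), chr3:159839626-159839640, plus strand: GGGaGGGaGGGaGGG
Prss23 (fall), chr7:89517623-89517640, minus strand: GGGGGcGGGGcGGGaGGG
Cnn1 (fall), chr9:22099029-22099054, plus strand: GGGGagaaGGGtggaaaaGGGGtGGG
These 6 were chosen among 8 sites and lie on the strand of the gene, between 24 and 224 bases before the start, while the sites of Cpt1a, a rise, and Igfbp4, a fall, lie on the opposite strand. For Otx2, Ak4, Rfx2, Prss23 and Cnn1 the RefSeq start lies inside the gene's GENCODE interval, and for Wls it lies before it. A match to these letters is a description of the sequence and not a measured structure.

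Over all tested genes the shares that changed were as follows. Of the 3237 genes with a promoter motif 20.1% rose and 21.1% fell (median 0.015), and of the 6751 without 17.3% rose and 17.1% fell (median 0.019). Genes with a motif in a 5′ untranslated region, on the sense strand in GENCODE M21, rose in 299 and fell in 241 of 1309 (median 0.016), and of the 10861 without 1910 rose and 2078 fell (median 0.010). For 3′ untranslated regions the shares were 21.6% and 20.3% of 1558 with a motif (median 0.053) and 17.7% and 18.8% of 10684 without (median 0.006). Genes with a motif had longer regions, with a median of 359 bases against 205 for 5′ regions and of 2156 against 1056 for 3′ regions, and the part of length in these values was not tested.

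The same loss in cells that keep FANCJ, the DHX36 knockout against wild type, shares no library with this comparison. There 3113 genes (24.4%) changed, 1628 higher (12.8%) and 1485 lower (11.6%). The wild-type libraries held 4284785 to 5792862 counts and the DHX36 knockout libraries 6223087 to 10919405. Depth thus differed from that of the double knockout libraries, and the part of depth in the number of calls with FANCJ was not tested. Both comparisons called 1971 genes, 956 higher in both, 935 lower in both and 80 in opposite directions. The genes called in the same direction made up 40.3% of the calls without FANCJ and 60.7% of the calls with FANCJ. Of the 4697 genes called without FANCJ, 85.2% had the same sign with FANCJ, beside 70.2% of all tested genes. Among the 1891 calls of the same direction, 1149 (60.8%) were larger without FANCJ, with a median size of 0.812 without it and 0.679 with it (log2).

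Genes in which the effect of DHX36 loss itself differed with FANCJ were found with an interaction term, the change without FANCJ minus the change with it. It was called in 1122 genes (8.79%), 348 in which the change was more positive without FANCJ (2.73%) and 774 in which it was more negative (6.06%). Of these, 524 were called without FANCJ only, 254 with FANCJ only, 247 in both in the same direction, 80 in opposite directions and 17 in neither. Of the 247, 202 had the larger change without FANCJ. In the DHX36 single knockout the median gene of chromosome 6 at 20 CPM or more stood at 0.42 to 0.44 above wild type in all 3 libraries, beside -0.06 to -0.03 in FANCJ knockout libraries and -0.03 to 0.01 in double knockout libraries. Of 586 tested genes on chromosome 6, 26.3% had a more negative interaction, so values of its genes carry that shift. With chromosome 6 left out, 899 genes had an interaction call, 284 more positive and 615 more negative.

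**Figure D4:**
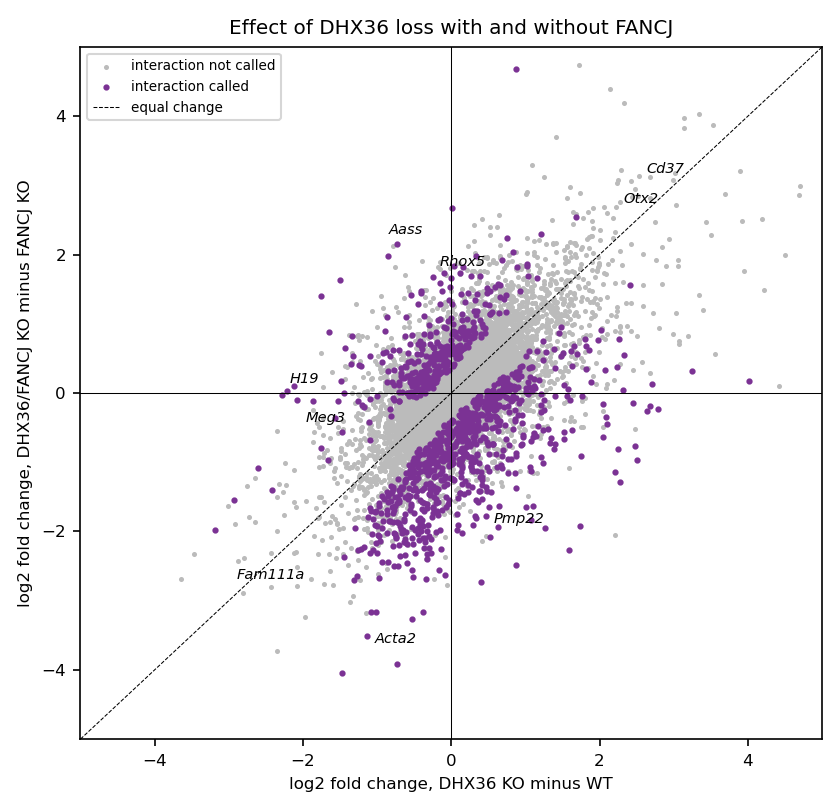
Log2 fold change of each of 12765 tested genes for DHX36 loss in cells with FANCJ (horizontal axis) and without FANCJ (vertical axis), with the 1122 genes of the interaction coloured and the dashed line marking equal change. 6 genes lie outside the drawn range. Acta2 lies far below the line and H19 far above it.

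The contractile block was deeper without FANCJ. Of the 26 actin and SRF genes 22 fell with FANCJ as well, beside 11.6% of all genes tested, with a median of -0.75. A more negative interaction was called in 16, beside 6.06% of all. Acta2 had 388, 314 and 385 CPM in wild type and 179, 161 and 156 CPM in the DHX36 knockout, a change of -1.13, and its interaction was -2.38 (SE 0.14, adjusted p = 5.50e-10). The 3 FANCJ knockout libraries lay above the 3 wild-type libraries, and the 3 double knockout libraries below the 3 DHX36 knockout libraries. Of the keratin and junction genes 11 of 20, and of the matrix genes 13 of 33, had a more negative interaction. Col1a1 (-1.79), the signalling protein Ccn4 (-1.80), Irs1 (-2.12), Igfbp4 (-1.86), Timp3 (-1.83) and Vgf (-1.76) were among the 8 most negative by the naming rule. Pmp22, a myelin and epithelial membrane protein, turned: it had 56.5, 59.8 and 59.5 CPM in wild type and 87.2, 77.1 and 79.7 CPM in the DHX36 knockout (0.47) and 94.2, 101 and 94.7 CPM in the FANCJ knockout and 30.6, 28.9 and 25 CPM in the double knockout (-1.78), an interaction of -2.25 (SE 0.13, adjusted p = 6.07e-10).

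Naive genes were more positive in the interaction in 10 of 30, and none was more negative. Their median change was 0.099 with FANCJ, where 9 rose and 5 fell, beside 12.8% and 11.6% of all genes tested. Spp1, osteopontin, had 65.5, 62.6 and 68.4 CPM in wild type and 26.6, 27.3 and 29.1 CPM in the DHX36 knockout (-1.24) and 70, 73.1 and 75.9 CPM in the FANCJ knockout and 100.2, 96 and 94.4 CPM in the double knockout (0.41). Aass was opposite too, with 22.8, 30.1 and 25.5 CPM in wild type and 11.9, 20.8 and 15.4 CPM in the DHX36 knockout (-0.74) and an interaction of 2.89 (SE 0.26, adjusted p = 1.90e-07), and it lies on chromosome 6, whose median moved the other way. The X-linked homeobox gene Rhox5 had 36.4, 41.5 and 49.9 CPM in the FANCJ knockout and 130.5, 129.5 and 146 CPM in the double knockout (1.68) against -0.25 with FANCJ (adjusted p = 0.152), an interaction of 1.93. Dusp27 changed by 1.73 without FANCJ and by 0.12 with it (adjusted p = 0.569). Wnt targets fell in 8 of 13 without FANCJ, beside 18.5% of all genes tested. With FANCJ 0 of 13 fell and 5 rose, beside 11.6% and 12.8% of all genes tested. A more negative interaction was called in 6 of the Wnt targets, beside 6.06% of all.

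For some imprinted noncoding RNAs the change was called in cells with FANCJ and not in cells without it. H19 had 151, 157 and 145 CPM in wild type and 38.6, 36.5 and 32.2 CPM in the DHX36 knockout (log2 change -2.08). It stood at 639 ± 50.7 CPM in the FANCJ knockout and 595 ± 17.9 CPM in the double knockout. Its interaction was 1.98 (SE 0.12, adjusted p = 9.72e-10). Of the Dlk1-Dio3 imprinted region on chromosome 12, Meg3 (-1.86 with FANCJ, interaction 1.75) and Rian (-1.22, 1.62) were likewise called with FANCJ and not without. Meg3 had 205, 179 and 187 CPM in wild type and 52.3, 46.7 and 57.5 CPM in the DHX36 knockout. Without FANCJ Rian changed by 0.39 (adjusted p = 0.121), and it was called with no filter (adjusted p = 0.0295) and without the third FANCJ knockout library (0.0176). Mirg, of the same region, was called in opposite directions, -1.33 with FANCJ and 0.53 without (adjusted p = 0.007, and 0.0512 without the third double knockout library), an interaction of 1.86.

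Among genes called in opposite directions, 6 are named, ranked by the smaller of their 2 changes. The chemokine gene Cxcl12, on chromosome 6, had 4.43, 2.83 and 0.940 CPM in wild type and 13.6, 14.8 and 12.1 CPM in the DHX36 knockout (2.27) and 6.19, 8.24 and 6.60 CPM in the FANCJ knockout and 3.45, 2.79 and 2.32 CPM in the double knockout (-1.28). The hyaluronan receptor Cd44 had 14.2, 18.9 and 12.7 CPM in wild type and 32.1, 33 and 32.7 CPM in the DHX36 knockout (1.08) and 17.8, 25.8 and 14.4 CPM in the FANCJ knockout and 10.5, 8.77 and 7.57 CPM in the double knockout (-1.13). In both, the level was higher in the DHX36 knockout than in wild type and lower in the double knockout than in the FANCJ knockout. At levels of a few CPM, the homeobox gene En1 (1.08 and -1.84), the chemokine Ccl7 (1.59 and -2.27) and the bZIP factor Maf (1.21 and -0.92, on chromosome 8) had the same directions, with calls that 1 library could decide. The call with FANCJ was lost for En1 without the third wild-type library (adjusted p = 0.0808). For Ccl7 it was lost with DESeq2 (0.0707) and without the third DHX36 knockout (0.0733), the first wild-type (0.0972) or the second wild-type library (0.104). For Maf it was lost without the third DHX36 knockout (0.117), the first wild-type (0.0754) or the second wild-type library (0.0912). The call of Maf without FANCJ was lost at equal depth (0.108) and without the first double knockout (0.0945) or the third FANCJ knockout library (0.152). Xlr5a had 7.75, 2.47 and 1.64 CPM in wild type and 1.00, 1.26 and 1.20 CPM in the DHX36 knockout (-1.75) and 6.70, 8.11 and 6.19 CPM in the FANCJ knockout and 10.2, 21 and 25.5 CPM in the double knockout (1.40). Its first wild-type library stood above the other two, and without it the change with FANCJ was -0.88 (adjusted p = 0.348) and the interaction 2.27 (adjusted p = 0.0493). The change with FANCJ was also not called without the first (0.0661) or the third DHX36 knockout library (0.0597). Xlr5a belongs to a family of near-identical X-linked copies, so its counts are uncertain.

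By chromosome, the median change without FANCJ was lowest on chromosome 8 (-0.127), where 28% of 700 tested genes fell and 9.43% rose. Chromosomes 14 (-0.099) and 10 (-0.083) followed. With chromosome 8 left out, 4396 genes were called, 2161 higher and 2235 lower. On the other 18 chromosomes, X included, the library medians of the 3 knockout genotypes lay between -0.13 and 0.07 of the wild-type mean. The part of chromosome-wide shifts in the changes of single genes was not tested.

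**Figure D5:**
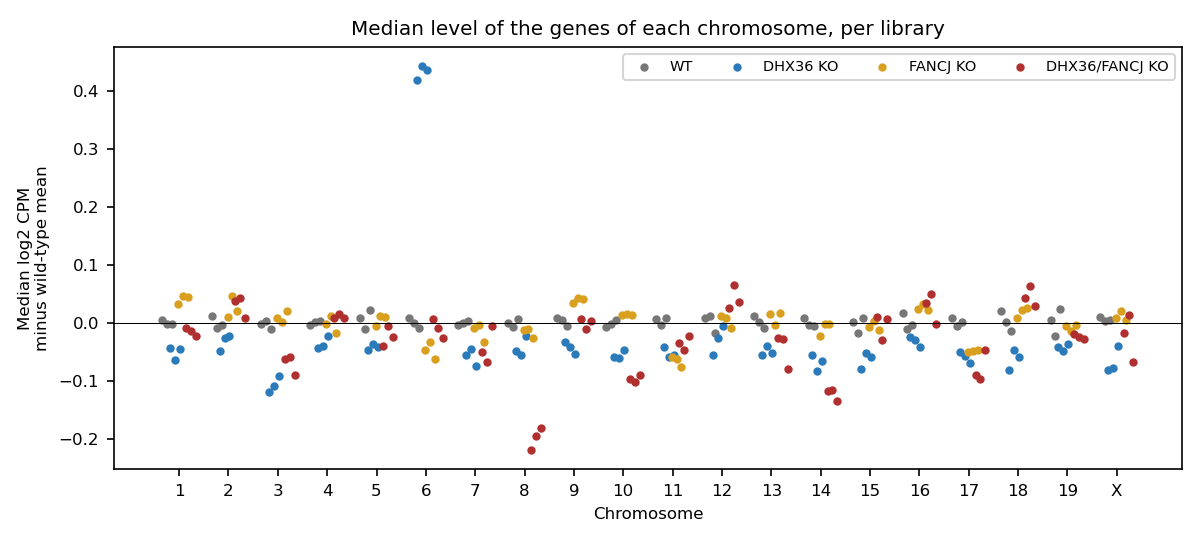
Median log2 CPM of the genes of each chromosome that average 20 CPM or more, minus the wild-type mean (vertical axis), with 1 point for each of 12 libraries. The DHX36 knockout libraries stand at 0.42 to 0.44 on chromosome 6 and the double knockout libraries at -0.22 to -0.18 on chromosome 8.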

How the data were processed

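Transcript levels were measured in 12 libraries of IB10 cells, 3 per genotype. The authors deposited whole-number counts per gene and library, without normalisation. The submitters' processing notes name BWA and the builds GRCm38 and hg38, with no roles. The sources used here do not say whether a count is a read or a molecule, nor how strand and multiply aligned reads were handled. The 92 spike-in rows were left out, and 32235 of 32285 gene identifiers matched GENCODE M21, a GRCm38 annotation.

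Counts of all 12 libraries were fitted with edgeR 4.0.16 (R 4.3.3) by its quasi-likelihood test, with trimmed-mean scaling, the default expression filter by genotype and genotype as the only term. Contrasts were the double knockout minus the FANCJ knockout, the DHX36 knockout minus wild type, and their difference. Adjusted p-values are Benjamini-Hochberg over 12765 genes, two-sided, with a threshold of 0.05, and SE were derived from the F statistic. CPM use the scaled totals. The fit was tested on simulated data.

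The named genes were the targeted pair, the 12 largest rises and falls averaging 20 CPM or more without overlap (1 predicted symbol was passed over), up to 4 called members of each list, up to 8 interaction genes in each direction and 6 opposite genes. Results for a few genes that the rule covers are not reported here. The comparison, genes and lists were chosen with earlier results of these data known. Lists said to be put together after the values were seen, and a few genes named likewise, fall outside that rule. Alternatives were other scaling, DESeq2 1.42.0, other filters, equal depth, a replicate block, the 6 libraries alone and each library left out. Leaving out chromosome 6 or 8 was added after the data were seen.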

Additional observations from a re-analysis of the deposited data

Results flagged for a closer look

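The effect of DHX36 loss differed between cells with and without FANCJ, by the interaction term in edgeR, in 1122 genes. Among those named, the change was more positive without FANCJ for Aass (2.89), H19 (1.98), Rhox5 (1.93), Mirg (1.86), Meg3 (1.75), Spp1 (1.65), Rian (1.61), Dusp27 (1.61) and Xlr5a (3.15). It was more negative for Acta2 (-2.38), Pmp22 (-2.25), Irs1 (-2.12), Igfbp4 (-1.86), Timp3 (-1.83), Ccn4 (-1.80), Col1a1 (-1.79), Vgf (-1.76), Ccl7 (-3.85), Cxcl12 (-3.56), En1 (-2.91), Cd44 (-2.20) and Maf (-2.13). All values are log2 differences of the change without FANCJ minus the change with it. Aass and Cxcl12 lie on chromosome 6, whose median interaction was -0.415, and Maf lies on chromosome 8, whose median interaction was -0.138.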

How the results depend on the processing

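Among genes that averaged 20 CPM or more alone, which leaves fewer genes to test, 2435 changed, 1253 higher and 1182 lower, and 741 were called in the interaction, 487 more negative. Leaving out each of the 6 compared libraries gave 3869 to 4206 changed genes, 1891 to 2084 higher and 1978 to 2122 lower, and leaving out each of the other 6 gave 4697 to 4832. Leaving out each of the 12 gave 880 to 1071 interaction calls, 249 to 329 more positive and 627 to 742 more negative. All other alternatives run stayed within 1.5 times the counts reported: library totals gave 4720 (2698 higher, 2022 lower, with the median of all genes at 0.067), DESeq2 4207, and no filter 4798. Libraries thinned to equal depth gave 3692, of which 3544 were among the 4697. Where a gene named by the rule was called in the fit reported or in the alternative, its change without FANCJ kept its direction. Turns of direction in genes called in neither were not counted. The alternatives for changes with FANCJ were chosen after seeing the data. The same replicate numbers did not pair the libraries: deviations of same-numbered libraries correlated at 0.055, -0.098 and -0.076 over 5701 genes, and not every library correlated best with its own number. With a replicate block 4581 genes changed and 1039 had an interaction. Motifs with loops of up to 12 bases gave a median of 0.006 for genes with a 5′ motif and 0.012 without, where loops of up to 7 gave 0.016 and 0.010. Depth limits genes of a few CPM, for which 1 library can decide a call.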

Other observations

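Genes of the 2-cell-like state, a rare state of stem cells that resembles the early embryo, did not share the pattern of the cells with FANCJ. Without FANCJ 4 of 12 tested members rose and 3 fell (median -0.020), with 2 rises at equal depth or without the first double knockout or the third FANCJ knockout library and 1 fall at equal depth. With FANCJ 7 rose and 0 fell (median 1.12), beside 12.8% and 11.6% of all genes tested. A more negative interaction was called in 9 of 12, beside 6.06% of all. Pramel6 had 1.03, 0.660 and 0.210 CPM in the FANCJ knockout and 2.84, 3.99 and 5.25 CPM in the double knockout (2.51), and Tcstv3 had 4.51, 5.72 and 5.36 CPM in the FANCJ knockout and 2.30, 1.67 and 2.05 CPM in the double knockout (-1.36). Levels were a few CPM, and members of these families are near-identical copies, so their counts are uncertain. Germline genes rose in 5 of 16 and fell in 3, beside 18.3% and 18.5% of all genes tested. Ddx4, the helicase of germ cells, had 13.2, 11.6 and 10.5 CPM in the FANCJ knockout and 6.02, 7.90 and 5.97 CPM in the double knockout (-0.84).

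Of 6 Y-linked genes listed, 4 were tested and 3 rose. Ddx3y had 24, 26.7 and 22.1 CPM in the FANCJ knockout and 39, 43.9 and 34.6 CPM in the double knockout (0.68) and Eif2s3y had 15.3, 15.2 and 18.2 CPM in the FANCJ knockout and 23.6, 25.3 and 22.4 CPM in the double knockout (0.56), while the wild-type means were 9.37 ± 0.921 and 10.4 ± 1.02 CPM. Kdm5d had 0 counts in each FANCJ knockout library, where 3 counts would be 0.387, 0.399 and 0.619 CPM, and 24, 15 and 12 counts in the double knockout.

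Cholesterol synthesis genes fell in 5 of 23 and rose in 1, beside 18.5% and 18.3% of all genes tested. Falls numbered 3 under library totals or without the second double knockout or the second FANCJ knockout library. Msmo1, a sterol oxidase on chromosome 8, had 80.3, 86.7 and 77.2 CPM in the FANCJ knockout and 64.3, 51.5 and 49.7 CPM in the double knockout (-0.56). Rises numbered 3 under library totals, 2 without the first or the third double knockout library, with only the 6 libraries compared and in genes at 20 CPM or more, where falls numbered 2, and 0 without the second double knockout or without the second or the third FANCJ knockout library. Mitochondrial mRNAs rose in 3 of 13, beside 18.3% of all genes tested, or in 1 without the first double knockout or the third FANCJ knockout library. Rpl39l, a ribosomal protein paralog, had 106, 120.2 and 109 CPM in the FANCJ knockout and 163, 179 and 175 CPM in the double knockout (0.62) and changed by -0.78 with FANCJ, an interaction of 1.40 (SE 0.13, adjusted p = 5.26e-07).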
